A study of Mus musculus with 10 samples.

Results

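The 53 genes described here encode non-collagen proteins of the extracellular matrix: glycoproteins, proteoglycans, growth-factor-binding proteins of the matrix and the enzymes that crosslink it. They were taken from a list of names out of 51707 named genes, and all 53 were found. Their RNA was measured in epithelial cells sorted from mouse tumours of pancreatic ductal adenocarcinoma (PDAC), in 10 RNA sequencing libraries. The tumours were grown from T6-LOH organoids, cultures of KPC carcinoma cells (a genetic mouse model of PDAC), which were transplanted into the pancreas along with stellate cells of that organ (PSCs). In 5 libraries the PSCs were the Egfr knockout clone B4 of the line PSC4 (Egfr KO PSC), and in 5 they were a Rosa control of that line, read here as Egfr WT PSC. All 10 libraries share the same organoid source and differ, per the labels, only in the PSCs. Egfr was thus deleted in the cells injected beside the carcinoma cells, which themselves were sorted and sequenced. There is 1 knockout clone, so clone and genotype cannot be told apart. NSG, an immunodeficient mouse, is the host in the title of the series, but each library carries the strain label C57BL/6J. The labels give neither the sort markers nor the animal behind each library, so the p-values here reflect only how much these libraries differ among themselves.

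The matrix around an epithelial tumour has 2 main compartments in textbook descriptions. Epithelial cells rest on a basement membrane of laminins, nidogens and the heparan sulfate proteoglycans perlecan and agrin, to which they contribute themselves. The interstitial matrix of fibronectin, elastic fibres, microfibrils and small proteoglycans is made largely by fibroblasts, and in the pancreas activated PSCs are a known source of it. Lysyl oxidases tie elastin and collagen fibres together.

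The promoters of 3 members on which the account below turns are shown first. Ecm1 and Fbln2 are among the 3 members of highest level, and Emilin1 is 1 of the 2 members whose groups did not overlap in CPM (counts per gene after TMM normalisation, as a share of the library). Each window runs from 250 bases before to 50 bases after the start site and is given as in RefSeq for build GRCm38.p6, on the gene's strand. The Ecm1 window is chr3:95739520-95739819 on the minus strand, the Fbln2 window chr6:91212514-91212813 on the plus strand, and the Emilin1 window chr5:30913536-30913835 on the plus strand. Capitals mark matches, on either strand, to the letters TATAAA (the TATA box), to TGANTCA (the element of the transcription factor AP-1) and to CCAAT, which reads as ATTGG on the other strand.
Ecm1: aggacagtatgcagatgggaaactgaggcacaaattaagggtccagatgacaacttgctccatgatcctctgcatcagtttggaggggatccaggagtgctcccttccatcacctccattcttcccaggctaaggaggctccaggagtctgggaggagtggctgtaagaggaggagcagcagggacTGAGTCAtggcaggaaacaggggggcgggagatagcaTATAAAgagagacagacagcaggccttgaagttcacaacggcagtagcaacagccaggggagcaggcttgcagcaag
Fbln2: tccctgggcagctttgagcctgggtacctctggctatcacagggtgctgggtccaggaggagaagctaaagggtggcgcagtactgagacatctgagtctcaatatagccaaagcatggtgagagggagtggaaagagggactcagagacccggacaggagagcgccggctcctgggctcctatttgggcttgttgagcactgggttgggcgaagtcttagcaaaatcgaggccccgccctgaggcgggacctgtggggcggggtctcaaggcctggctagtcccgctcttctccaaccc
Emilin1: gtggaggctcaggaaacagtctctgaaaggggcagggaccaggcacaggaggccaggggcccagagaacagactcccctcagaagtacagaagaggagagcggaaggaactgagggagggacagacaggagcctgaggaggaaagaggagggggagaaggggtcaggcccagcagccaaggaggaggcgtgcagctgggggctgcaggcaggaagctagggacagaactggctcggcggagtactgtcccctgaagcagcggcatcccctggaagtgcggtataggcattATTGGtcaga
In Ecm1, TATAAA stood at position -27 and TGAGTCA at position -64 from the start site. Emilin1 held ATTGG at position 41, and Fbln2 held none of these letters in this window. Over all 32851 promoters of the table, 13.6% held TATAAA, 7.81% held TGANTCA and 37.4% held CCAAT. The table matched 35 of the 53 members, and not Fn1 or Ccdc80. Of the 46 promoters of these 35 genes, 8 held TATAAA, 3 held TGANTCA and 13 held CCAAT. They belonged to 7, 3 and 13 genes, and only the counts of promoters have the unit of the shares above. These matches describe letters and do not show that a factor binds.

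The sort was checked first. All 8 epithelial markers were above 10 TPM (the deposited level of transcripts, which is per length), and their sum lay between 13232 and 21007 TPM in Egfr KO PSC libraries and between 13831 and 16167 TPM in Egfr WT PSC libraries. The 13 fibroblast and stellate cell markers together gave 122 to 409 TPM in Egfr KO PSC libraries and 126 to 324 TPM in Egfr WT PSC libraries, so their RNA was present at a low level. The 10 endothelial markers summed to 10.9 to 45.5 TPM in Egfr KO PSC libraries and to 20.6 to 32.1 TPM in Egfr WT PSC libraries. The 9 pericyte markers gave 15.2 to 62.6 TPM in Egfr KO PSC libraries and 35.6 to 86.9 TPM in Egfr WT PSC libraries, and the 10 macrophage markers gave 34.7 to 43.8 TPM in Egfr KO PSC libraries and 27.3 to 74.0 TPM in Egfr WT PSC libraries. The 5 neutrophil and 4 Schwann cell markers summed to under 10 TPM everywhere, and the Schwann cell markers Sox10 and Cdh19 were under 3 counts in every library. Acinar markers summed to 126 to 533 TPM in Egfr KO PSC libraries and 203 to 495 TPM in Egfr WT PSC libraries. Of the mesothelial list, at 566 to 2019 TPM in Egfr KO PSC libraries and 827 to 1008 TPM in Egfr WT PSC libraries, nearly all was mesothelin (Msln, 1057 TPM on average), a gene that PDAC cells also express. None of the 9 marker lists passed a test of summed CPM between the groups (exact permutation test, two-sided, adjusted p = 0.794 for each). The fibroblast sum averaged 665 CPM in Egfr KO PSC libraries and 736 CPM in Egfr WT PSC libraries. Most of it was 1 gene, Col3a1, at 477 CPM in Egfr KO PSC libraries and 412 CPM in Egfr WT PSC libraries. Col1a1 ran the other way, at 96.6 CPM in Egfr KO PSC libraries and 199 CPM in Egfr WT PSC libraries. As a mean log2 CPM, which weights each marker equally, the macrophage markers were at 0.64 in Egfr KO PSC libraries and 1.42 in Egfr WT PSC libraries and the mesothelial markers at 2.45 in Egfr KO PSC libraries and 3.25 in Egfr WT PSC libraries (a measure added after seeing the data; unadjusted exact permutation p = 0.0476 and 0.0714, adjusted p = 0.321 for both), while the macrophage sum averaged 66.5 CPM in Egfr KO PSC libraries and 63.1 CPM in Egfr WT PSC libraries. Without Egfr KO PSC replicate 3 the endothelial sum was lower in every remaining Egfr KO PSC library than in any Egfr WT PSC library (exact permutation p = 0.00794, unadjusted, the smallest that the 126 assignments of 4 and 5 libraries can give). Egfr itself was at 16.4 to 30.4 TPM in Egfr KO PSC libraries and 10.8 to 26.6 TPM in Egfr WT PSC libraries. That level belongs to the sorted cells and does not check the knockout in the PSCs. Between 39533698 and 53815744 estimated counts per library fell on named genes.

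The summed TPM of the 53 members was dominated by 3 genes. Ecm1, which encodes extracellular matrix protein 1, a secreted glycoprotein known for its role in skin, averaged 1715 TPM over the 10 libraries. Fn1, fibronectin, the main adhesive ligand of integrins, averaged 812 TPM, and Fbln2, fibulin-2, a binding partner of fibronectin and basement membrane proteins, averaged 469.9 TPM. These 3 held between 53.5% and 76.8% of the summed TPM of all 53 members in each library (mean 64.5%). Next came Lama5 (184 TPM, with 19.2% of it in transcripts annotated as protein-coding), Lamb1 (139), Ltbp1 (132), Igfbp4 (113), Thbs1 (104) and Lamb2 (101 TPM). Each neighbouring pair in this order, from Ecm1 to Lamb2, overlapped in TPM over the libraries, apart from Fbln2 and Lama5.

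Members were separated by their mean TPM over all 10 libraries, which uses no group label. At 10 TPM or more stood 27 members, called abundant here, and they held 97.9% of the summed TPM. Another 19 lay from 1 to under 10 TPM and held 2.0%, and 7 lay under 1 TPM and held 0.0765%. Sparcl1 was just inside the abundant class at 11.3 TPM and Prelp just outside it at 9.67 TPM. The 7 low members were Nid2, Lum, Loxl1, Mfap4, Fmod, Lama2 and Lama1. Lama1, the alpha chain of the embryonic laminin, had 0 to 12 counts per library and was the only member below the expression filter, so 52 were tested.

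**Figure D1:**
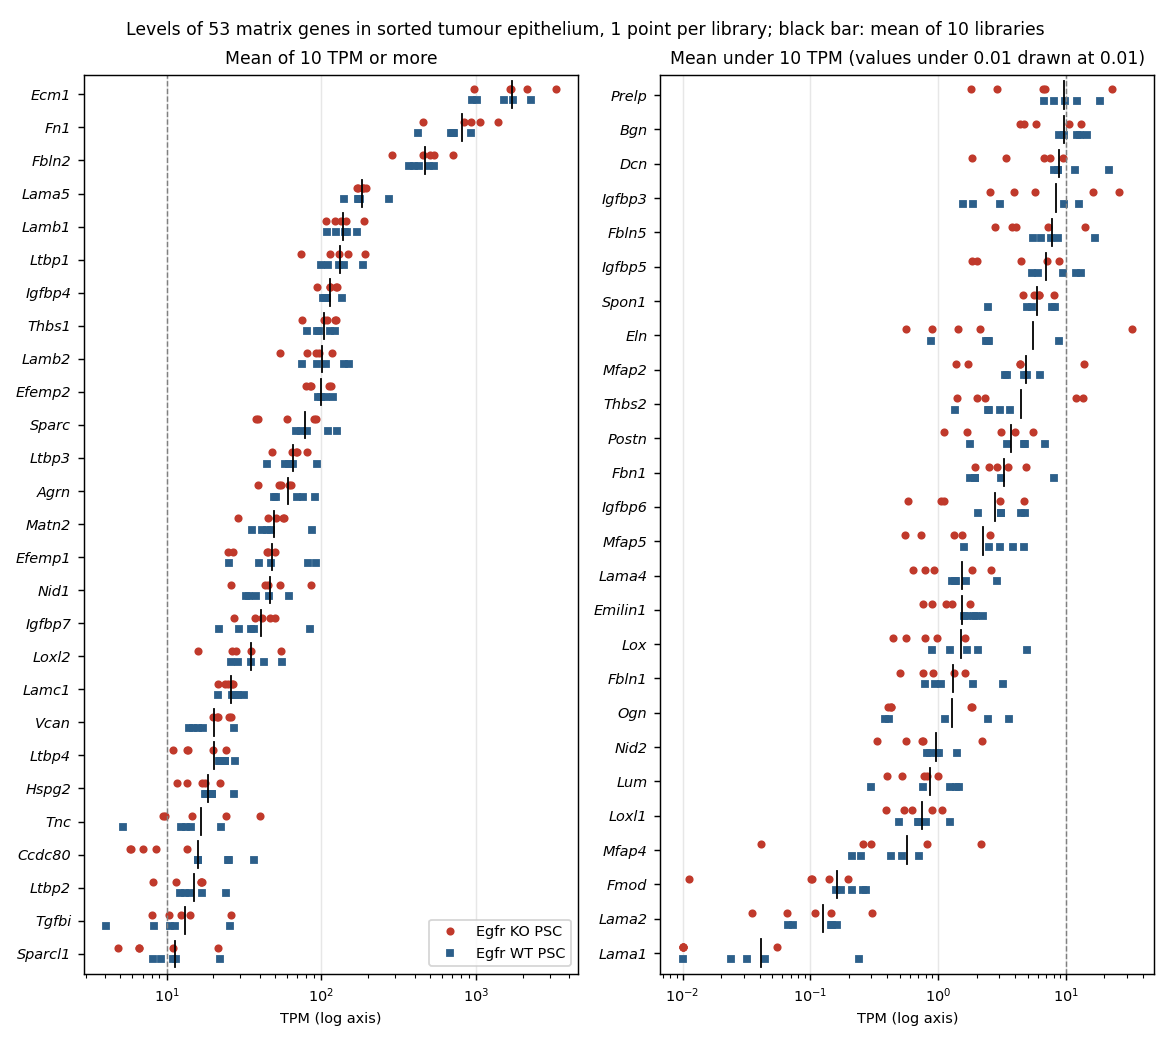
Level of each of the 53 members in TPM (log axis) in the 5 Egfr KO PSC libraries (red circles) and the 5 Egfr WT PSC libraries (blue squares), with the mean of 10 libraries as a black bar and a dashed line at 10 TPM. Ecm1, Fn1 and Fbln2 lie highest, and the groups overlap in every gene but Ccdc80.

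The spread between libraries is given for abundant and for scarce members as a description. Among the 27 abundant members the highest library exceeded the lowest by a median of 2.77-fold, with a range from 1.46-fold to 7.66-fold. Among the 25 tested members under 10 TPM the median was 8.20-fold, and the widest, at 58.6-fold, was Eln. Counts are also fewer in this second set, and the part of counting error in its spread was not tested. Elastin (Eln), the core protein of elastic fibres, was at 0.560, 32.8, 2.14, 1.42 and 0.900 TPM in Egfr KO PSC libraries and at 8.74, 2.37, 2.47, 2.52 and 0.877 TPM in Egfr WT PSC libraries. One Egfr KO PSC library, replicate 2, lay far above the other 9 in TPM. Replicate 1 of the same group stood highest for the microfibril genes Mfap2, at 13.9 TPM, and Mfap4, at 2.17 TPM.

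The central comparison, Egfr KO PSC libraries against Egfr WT PSC libraries, asks whether carcinoma cells of tumours with knockout stellate cells carry other levels of these genes. With edgeR's quasi-likelihood test and Benjamini-Hochberg adjustment, 0 of the 52 members passed an adjusted p of 0.05, as did 0 of all 17495 genes tested (0%). DESeq2 called 1 member, Ccdc80, beside 132 of 20162 genes (0.655%), and limma voom called 0 members beside 3 genes (0.0171%). At an unadjusted p under 0.05 edgeR found 5 members lower in Egfr KO PSC libraries (9.62% of those tested, against 4.6% of all genes) and 1 higher (1.92%, against 3.55%), together 6 where 8.15% of all genes passed. With limma voom 9 members were lower at that level, against 7.68% of all genes, and 1 was higher, against 5.28%. A log2 fold change below 0 was seen for 33 of 52 members (63.5%), against 49.9% of all genes. The median log2 fold change was -0.16 over the members and 0.00041 over all genes. The median over members was -0.050 without Egfr WT PSC replicate 5, where 28 members were below 0, -0.064 without Egfr KO PSC replicate 3 and -0.055 with limma voom. Normalised CPM did not overlap between the groups for 2 members, Ccdc80 and Emilin1, both lower (3.85%, against 0.743% of all genes lower and 1.52% in either direction).

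More of the lower values lay among scarce members, a difference given as a description with no test. Of the abundant members 14 were lower and 13 higher, with a median log2 fold change of -0.026. That median was above 0 without Egfr WT PSC replicate 5 (0.059), without Egfr WT PSC replicate 2 (0.016) and with limma voom (0.080). Of the 25 tested members under 10 TPM 19 were lower and 6 higher, with a median of -0.43. Over the 19 from 1 to under 10 TPM it was -0.47, and -0.25 without Egfr WT PSC replicate 1. In bulk libraries fewer cells of a type and less RNA per cell cannot be told apart. Beside these counts, 9 of 13 fibroblast markers, 10 of 10 endothelial markers, 7 of 9 pericyte markers and 7 of 10 macrophage markers also had log2 fold changes below 0, with medians of -0.46, -0.26, -0.46 and -1.19. Of the macrophage markers, 6 of 10 were lower at an unadjusted edgeR p under 0.05, against 4.6% of all genes. The part of these cells in the members' values was not tested.

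**Figure D2:**
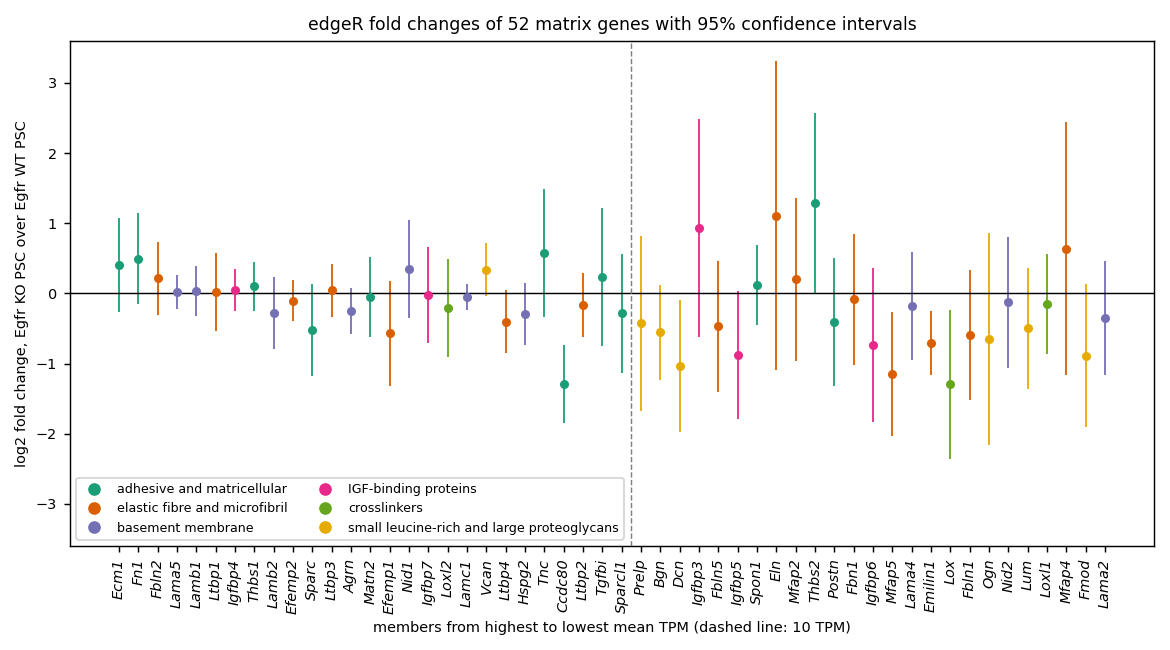
Log2 fold change of the 52 tested members, Egfr KO PSC over Egfr WT PSC, with 95% confidence intervals from edgeR, ordered by mean TPM and coloured by role (dashed line at 10 TPM). Points to the left of the line lie between -0.57 and 0.58 apart from Ccdc80 at -1.29, while 19 of the 25 points to the right lie below 0.

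Adhesive and matricellular proteins signal between cells and matrix. Of 12 members 5 were lower and 7 higher in Egfr KO PSC libraries, with a median log2 fold change of 0.11. Ccdc80, a secreted matrix protein studied in fat tissue, had 5.91, 13.7, 7.08, 5.79 and 8.52 TPM in Egfr KO PSC libraries, against 25.1, 37.0, 16.0, 15.8 and 25.4 TPM in Egfr WT PSC libraries. Every Egfr KO PSC library lay below every Egfr WT PSC library. The log2 fold change was -1.29 (SE 0.25), at an unadjusted p of 0.000278 and an edgeR Benjamini-Hochberg adjusted p of 0.304. DESeq2 gave an adjusted p of 0.00223 for the same gene, so its call depends on the tool. Over the 16 alternative settings its log2 fold change lay between -1.55 and -0.98, and the unadjusted p stayed under 0.05 in each of them.

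Thbs2, thrombospondin-2, an inhibitor of angiogenesis, had 12.0, 1.41, 13.5, 2.0 and 2.32 TPM in Egfr KO PSC libraries and 2.46, 1.36, 3.67, 2.51 and 3.05 TPM in Egfr WT PSC libraries. Replicates 1 and 3 of Egfr KO PSC stood alone at the top, and in TPM the other 3 lay within the range of Egfr WT PSC. Its log2 fold change was 1.29 (SE 0.59, unadjusted p = 0.0494, edgeR adjusted p = 0.61). Without replicate 1 or without replicate 3 of that group the unadjusted p was no longer under 0.05, and it was under 0.05 in 5 of 16 alternatives. Sparc, the calcium-binding matricellular protein osteonectin, was at 90.3, 39.2, 92.8, 37.7 and 60.0 TPM in Egfr KO PSC libraries and 73.4, 110.1, 68.4, 81.1 and 127 TPM in Egfr WT PSC libraries. In TPM, Egfr KO PSC replicates 2, 4 and 5 lay below every Egfr WT PSC library and the other 2 within that group's range (edgeR adjusted p = 0.685 at a log2 fold change of -0.52, SE 0.30). In CPM, Egfr KO PSC replicate 5, at 76.0, lay above Egfr WT PSC replicate 3, at 74.8.

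The 2 most abundant members belong to this role and were higher on average in Egfr KO PSC libraries without passing the test. Ecm1 had 1656, 2134, 973, 3262 and 1679 TPM in Egfr KO PSC libraries and 934, 1007, 1516, 2259.9 and 1734 TPM in Egfr WT PSC libraries. Fn1 had 1054, 923, 453, 1384 and 836 TPM in Egfr KO PSC libraries and 719, 423, 707, 924 and 692 TPM in Egfr WT PSC libraries. The groups overlapped, and for both genes replicate 4 was the highest and replicate 3 the lowest Egfr KO PSC library. Their log2 fold changes were 0.40 (SE 0.30, edgeR adjusted p = 0.758) and 0.49 (SE 0.30, edgeR adjusted p = 0.704). Without Egfr KO PSC replicate 4 they were 0.15 for Ecm1 and 0.30 for Fn1. Without Egfr WT PSC replicate 1 Ecm1 was at 0.27. Thbs1, thrombospondin-1, an activator of latent TGF-beta, had 122, 108, 74.5, 124 and 105 TPM in Egfr KO PSC libraries and 114, 81.2, 96.2, 94.4 and 122 TPM in Egfr WT PSC libraries, with groups that overlapped throughout (log2 fold change 0.10, edgeR adjusted p = 0.892). Of the other 6, Tnc, Tgfbi and Spon1 had log2 fold changes of 0.58, 0.23 and 0.12, and Postn, Sparcl1 and Matn2 of -0.40, -0.28 and -0.050. Periostin (Postn), a product of activated fibroblasts, was at 3.69 TPM on average and tenascin-C (Tnc), an anti-adhesive glycoprotein, at 16.7 TPM.

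**Figure D3:**
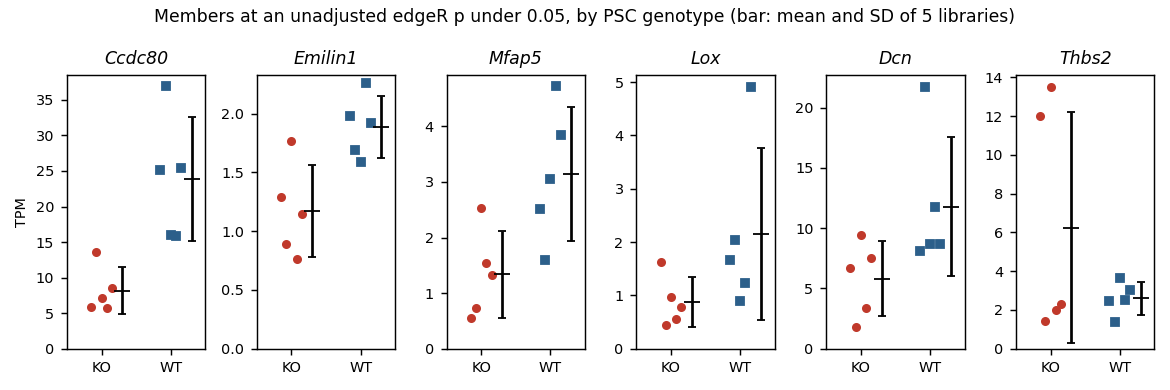
TPM of the 6 members at an unadjusted edgeR p under 0.05 in Egfr KO PSC (KO, red circles) and Egfr WT PSC (WT, blue squares) libraries, with mean and SD of 5 libraries in black. The Ccdc80 groups do not overlap, and the higher Thbs2 mean of Egfr KO PSC rests on 2 libraries at 12.0 and 13.5 TPM.

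Elastic fibres and microfibrils give tissues recoil and store latent TGF-beta. Of 15 members 9 were lower and 6 higher, with a median log2 fold change of -0.10. Emilin1, a microfibril glycoprotein known to restrain TGF-beta processing, had 3.14, 2.09, 3.05, 1.88 and 2.20 CPM in Egfr KO PSC libraries, against 3.21, 4.42, 3.68, 4.22 and 4.71 CPM in Egfr WT PSC libraries. On this scale the groups did not overlap. In TPM it had 1.29, 0.889, 1.77, 0.762 and 1.15 in Egfr KO PSC libraries and 1.98, 1.69, 1.59, 2.26 and 1.92 in Egfr WT PSC libraries, and there Egfr KO PSC replicate 3 lay above 2 Egfr WT PSC libraries. The log2 fold change was -0.71 (SE 0.21, unadjusted p = 0.0055, edgeR adjusted p = 0.44).

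Mfap5, a microfibril-associated glycoprotein, had 0.554, 0.735, 2.53, 1.54 and 1.32 TPM in Egfr KO PSC libraries and 2.51, 1.60, 3.06, 4.72 and 3.85 TPM in Egfr WT PSC libraries. Of the 5 Egfr KO PSC libraries, only replicate 3 lay above the lowest Egfr WT PSC library. Its log2 fold change was -1.15 (SE 0.41, unadjusted p = 0.015, edgeR adjusted p = 0.495). Both Emilin1 and Mfap5 kept an unadjusted p under 0.05 in all 16 alternatives. Ltbp4, a latent TGF-beta binding protein also needed for elastic fibre assembly, had 24.2, 11.0, 13.6, 20.1 and 13.7 TPM in Egfr KO PSC libraries and 21.9, 23.8, 27.9, 23.8 and 22.3 TPM in Egfr WT PSC libraries. Of the 5 Egfr KO PSC libraries 4 lay below every Egfr WT PSC library in TPM (edgeR adjusted p = 0.655 at a log2 fold change of -0.40, SE 0.21). In CPM, Egfr KO PSC replicate 4, at 31.4, lay above Egfr WT PSC replicate 5, at 28.7.

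The most abundant genes of this role did not pass the test and their groups overlapped. Fbln2 had 454, 502, 287, 530.4 and 704 TPM in Egfr KO PSC libraries and 397, 424, 369, 498 and 532 TPM in Egfr WT PSC libraries. Ltbp1, which anchors latent TGF-beta in the matrix, had 114, 130.1, 73.8, 148 and 191 TPM in Egfr KO PSC libraries and 186, 129, 99.5, 110.4 and 139.6 TPM in Egfr WT PSC libraries. Efemp2 (fibulin-4), which brings lysyl oxidase to elastin, had 79.4, 116, 85.9, 112 and 84.4 TPM in Egfr KO PSC libraries and 99.6, 118, 95.6, 99.8 and 107 TPM in Egfr WT PSC libraries. These 3 genes had log2 fold changes of 0.21 (95% interval -0.31 to 0.73), 0.020 (-0.53 to 0.58) and -0.10 (-0.39 to 0.19). Without Egfr KO PSC replicate 5 Fbln2 was at 0.00080, without Egfr WT PSC replicate 3 at 0.14 and without Egfr KO PSC replicate 3 at 0.39. The fibulin genes Fbln1 and Fbln5 and the fibulin-like Efemp1 had log2 fold changes of -0.59, -0.47 and -0.57. The fibrillin gene Fbn1, backbone of microfibrils, was at 3.26 TPM with a log2 fold change of -0.087. Ltbp2 was at -0.17 and Ltbp3 at 0.042, while Eln (1.11), Mfap2 (0.20) and Mfap4 (0.64) had wide intervals, beside the single high libraries named above.

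Proteoglycans of the interstitial matrix organise collagen fibrils and bind growth factors. Of 7 members 6 were lower and 1 higher, with a median log2 fold change of -0.56. Decorin (Dcn), a small leucine-rich proteoglycan that binds collagen and TGF-beta, had 6.74, 1.83, 9.44, 3.40 and 7.54 TPM in Egfr KO PSC libraries and 8.08, 21.7, 8.68, 11.7 and 8.67 TPM in Egfr WT PSC libraries. In TPM, Egfr KO PSC replicate 3 exceeded 3 Egfr WT PSC libraries, and the other 4 lay below all 5 of that group. In CPM, Egfr KO PSC replicate 5, at 9.56, also lay above Egfr WT PSC replicate 1, at 9.11. Its log2 fold change was -1.03 (SE 0.43, unadjusted p = 0.0343, edgeR adjusted p = 0.578). The unadjusted p was not under 0.05 without Egfr KO PSC replicate 2, without Egfr KO PSC replicate 4 or without Egfr WT PSC replicate 2.

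Biglycan (Bgn), its close relative, had 13.1, 4.36, 10.6, 4.68 and 5.85 TPM in Egfr KO PSC libraries and 8.88, 14.5, 9.56, 12.2 and 12.9 TPM in Egfr WT PSC libraries. Egfr KO PSC replicates 2, 4 and 5 lay below the whole other group (log2 fold change -0.56, SE 0.31, edgeR adjusted p = 0.674). Prelp, a proteoglycan at basement membranes and in cartilage, had 2.88, 23.0, 6.88, 1.80 and 6.65 TPM in Egfr KO PSC libraries and 12.2, 18.6, 6.74, 9.90 and 8.11 TPM in Egfr WT PSC libraries. Fibromodulin (Fmod) had 0.197, 0.139, 0.103, 0.0113 and 0.102 TPM in Egfr KO PSC libraries and 0.256, 0.158, 0.210, 0.174 and 0.270 TPM in Egfr WT PSC libraries, but at 1 to 25 counts per library these levels are near the limit of what the depth can resolve. Egfr KO PSC replicate 2 held the highest Prelp level of all 10 libraries, and for Fmod 4 of the 5 Egfr KO PSC libraries lay below every Egfr WT PSC library. The log2 fold changes were -0.43 for Prelp and -0.89 for Fmod (edgeR adjusted p = 0.867 and 0.662), and -0.50 for lumican and -0.65 for osteoglycin. Versican (Vcan), the large hyaluronan-binding proteoglycan, was the exception. It had 19.8, 21.1, 21.6, 25.3 and 26.0 TPM in Egfr KO PSC libraries and 17.3, 14.9, 14.0, 15.9 and 27.4 TPM in Egfr WT PSC libraries. In TPM, all 5 Egfr KO PSC libraries lay above 4 of the Egfr WT PSC libraries and below replicate 5 (log2 fold change 0.34, SE 0.17, edgeR adjusted p = 0.652). In CPM, Egfr KO PSC replicates 4 and 5, at 141 and 145, lay above that library, at 137.

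Basement membrane genes had the narrowest range of fold changes of the 6 roles. Of 10 members tested 7 were lower and 3 higher, with log2 fold changes between -0.35 and 0.35 and a median of -0.15, and 0 reached an unadjusted p under 0.05. Lama5, the alpha chain of the laminins of adult epithelia, had 173, 194, 185, 185 and 169 TPM in Egfr KO PSC libraries and 140.4, 171, 176, 178 and 273 TPM in Egfr WT PSC libraries. Lamb1, a beta chain, had 135, 144, 107, 188 and 122 TPM in Egfr KO PSC libraries and 142, 124, 108, 169 and 146 TPM in Egfr WT PSC libraries. Lamb2, the beta chain of laminins at muscle, nerve and kidney basement membranes, had 117, 96.4, 54.2, 80.9 and 92.9 TPM in Egfr KO PSC libraries and 150.0, 94.3, 139, 108 and 75.4 TPM in Egfr WT PSC libraries. All 3 overlapped between the groups, with log2 fold changes of 0.018 (95% interval -0.23 to 0.26), 0.034 (-0.33 to 0.40) and -0.28 (-0.79 to 0.23). The intervals of Lama5 and Lamc1 (-0.24 to 0.13) were the narrowest of the role.

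Lamc1, the common gamma chain, was at 26.1 TPM, the crosslinker nidogen-1 (Nid1) at 46.8, agrin (Agrn) at 60.9 and perlecan (Hspg2) at 18.4 TPM. The endothelial and mesenchymal alpha chain Lama4 was at 1.54 TPM, and the muscle chain Lama2 at 0.125 TPM. Part of the level of several large basement membrane genes was assigned to transcripts not annotated as protein-coding. Coding transcripts held 19.2% of the TPM of Lama5, 29.1% of Hspg2 and 30.0% of Agrn, and in other roles 39.5% of Ltbp4, 44.6% of Ltbp3 and 55.3% of Igfbp4. With coding transcripts alone, a count chosen after seeing the data, Hspg2 (5.35 TPM) and Ltbp4 (7.98 TPM) left the abundant class and 25 members remained in it. Lama5 was then at 35.5 TPM, below Lamb1 (137), Ltbp1 (128), Thbs1 (104), Efemp2 (97.4), Lamb2 (82.0), Sparc (77.8) and Igfbp4 (62.5 TPM). It also lay below Matn2 (48.4), Efemp1 (47.7), Igfbp7 (41.0) and Nid1 (39.1 TPM), so its place in the order of levels depends on this count.

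The IGF-binding proteins carry insulin-like growth factors in the matrix and in serum. Of 5 members 3 were lower and 2 higher, with a median log2 fold change of -0.026. Igfbp4 had 93.0, 126, 125, 114 and 114 TPM in Egfr KO PSC libraries and 103, 107, 109, 106 and 136 TPM in Egfr WT PSC libraries. Igfbp7, which also marks tumour vessels, had 37.5, 46.4, 41.6, 49.9 and 27.2 TPM in Egfr KO PSC libraries and 21.7, 29.5, 35.0, 36.9 and 84.1 TPM in Egfr WT PSC libraries. These 2 abundant genes overlapped between the groups, and Egfr WT PSC replicate 5 was the highest library for both. Igfbp3 had 5.68, 2.55, 26.1, 16.2 and 3.90 TPM in Egfr KO PSC libraries and 1.57, 1.86, 3.04, 12.7 and 9.56 TPM in Egfr WT PSC libraries, with replicates 3 and 4 of Egfr KO PSC highest. Igfbp5, a product of fibroblasts and other mesenchymal cells, had 4.47, 1.84, 8.76, 2.01 and 7.13 TPM in Egfr KO PSC libraries and 13.1, 6.05, 11.9, 9.51 and 5.45 TPM in Egfr WT PSC libraries. For Igfbp5, replicates 1, 2 and 4 of Egfr KO PSC lay below every Egfr WT PSC library (log2 fold change -0.88, SE 0.42, unadjusted p = 0.059, edgeR adjusted p = 0.635). Log2 fold changes were 0.046 for Igfbp4, -0.026 for Igfbp7, 0.93 for Igfbp3 and -0.74 for Igfbp6, none past the edgeR threshold.

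All 3 crosslinking enzymes were lower on average, with a median log2 fold change of -0.20. Lox, lysyl oxidase, which starts the crosslinking of collagen and elastin, had 1.62, 0.443, 0.971, 0.560 and 0.787 TPM in Egfr KO PSC libraries and 1.67, 2.04, 0.889, 1.23 and 4.92 TPM in Egfr WT PSC libraries. Egfr WT PSC replicate 5 stood highest, and the groups overlapped. Its log2 fold change was -1.30 (SE 0.49, unadjusted p = 0.0211, edgeR adjusted p = 0.515). Without Egfr WT PSC replicate 5 it was -0.72 and the unadjusted p was no longer under 0.05. Loxl2, an enzyme that also acts on basement membrane collagen IV, was the abundant one, with 35.2, 26.4, 15.9, 27.9 and 54.8 TPM in Egfr KO PSC libraries and 28.7, 56.0, 25.9, 35.3 and 42.7 TPM in Egfr WT PSC libraries. Loxl1, which serves elastic fibre renewal, had 1.07, 0.620, 0.539, 0.900 and 0.391 TPM in Egfr KO PSC libraries and 0.491, 0.698, 0.810, 0.708 and 1.24 TPM in Egfr WT PSC libraries. Both overlapped throughout (log2 fold changes -0.20 and -0.15).

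Members were next compared with marker scores across the 10 libraries, since abundance alone does not say which cells a transcript came from. The fibroblast score was the mean log2 CPM of 13 fibroblast and stellate cell markers, none of them a member. It averaged 2.74 ± 0.364 in Egfr KO PSC libraries and 3.20 ± 0.524 in Egfr WT PSC libraries (SD, n = 5 each). Of 52 relations, 3 passed Benjamini-Hochberg adjustment of the permutation p over these 52 (100000 resamples). The share of all genes that would pass was not counted, so the 3 cannot be read against it. Lox increased with the score (Pearson r = 0.93, adjusted permutation p = 0.00364; Spearman rho = 0.92, adjusted permutation p = 0.0143). Sparc followed (r = 0.89, adjusted permutation p = 0.0179; rho = 0.92, adjusted permutation p = 0.0143), and so did Bgn (r = 0.85, adjusted permutation p = 0.0395; rho = 0.88, adjusted permutation p = 0.0317). With group means subtracted r was 0.91 for Lox, 0.85 for Sparc and 0.79 for Bgn, and without the 2 libraries farthest from the median score (replicate 2 with Egfr KO PSCs and replicate 5 with Egfr WT PSCs) it was 0.84, 0.78 and 0.82. The next gene, Emilin1, had r = 0.78 and did not pass (adjusted permutation p = 0.114). Ccdc80 had r = 0.56 (adjusted permutation p = 0.628), and 0.31 with group means subtracted. The median r was 0.16 over abundant members, 0.27 over those from 1 to under 10 TPM and 0.35 over the 6 tested under 1 TPM. With group means subtracted these medians were 0.16, 0.40 and 0.18, and without the 2 libraries farthest from the median score 0.033, 0.17 and 0.17.

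The endothelial score was examined in the same way, a choice made after seeing the data. It averaged 1.10 ± 0.719 in Egfr KO PSC libraries and 1.59 ± 0.240 in Egfr WT PSC libraries, with replicate 3 highest in Egfr KO PSC libraries and replicate 5 highest in Egfr WT PSC libraries. Of 52 relations, 4 passed by Pearson r, again with no share of all genes counted beside them. Nid2, nidogen-2, had r = 0.98 (adjusted permutation p = 0.00156; rho = 0.89, adjusted permutation p = 0.0247), and Lama4 had r = 0.93 (adjusted permutation p = 0.00468; rho = 0.84, adjusted permutation p = 0.0578). Sparcl1, a relative of Sparc also known from vessels, had r = 0.91 (adjusted permutation p = 0.00676; rho = 0.73, adjusted permutation p = 0.174). Fn1 ran the other way, with r = -0.85 (adjusted permutation p = 0.03; rho = -0.90, adjusted permutation p = 0.0247). Without the 2 libraries farthest from the median, replicates 1 and 3 of Egfr KO PSC, r was 0.96 for Nid2, 0.84 for Lama4, 0.83 for Sparcl1 and -0.78 for Fn1. With group means subtracted it was 0.99, 0.93, 0.91 and -0.82. By rank, Nid2 and Fn1 passed and Lama4 and Sparcl1 did not. The endothelial and pericyte scores moved together (r = 0.92 over the 10 libraries, given as a description), so relations with either cannot be told apart. Lox, Sparc and Bgn had r = 0.43, 0.56 and 0.41 with the endothelial score, none of them passing. With group means subtracted r was 0.22, 0.44 and 0.22. Without replicates 1 and 3 of Egfr KO PSC it was 0.93, 0.97 and 0.92, so these values depended on those 2 libraries. The fibroblast and endothelial scores had r = 0.40 with each other over the 10 libraries. Whether the rise of these 3 genes was particular to the fibroblast score was not tested. The median r with the endothelial score was -0.18 over abundant members (9 of 27 positive), 0.37 over those from 1 to under 10 TPM (14 of 19) and 0.32 over the 6 tested under 1 TPM (5 of 6). With group means subtracted these medians were -0.39, 0.23 and 0.15. Without replicates 1 and 3 of Egfr KO PSC they were 0.079, 0.54 and 0.51, so the sign over abundant members depended on those 2 libraries. Of the 6 members that rose with a score by Pearson r, Lox, Bgn, Nid2 and Lama4 lay under 10 TPM, and Sparc (77.9 TPM) and Sparcl1 (11.3 TPM) were in the abundant class.

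**Figure D4:**
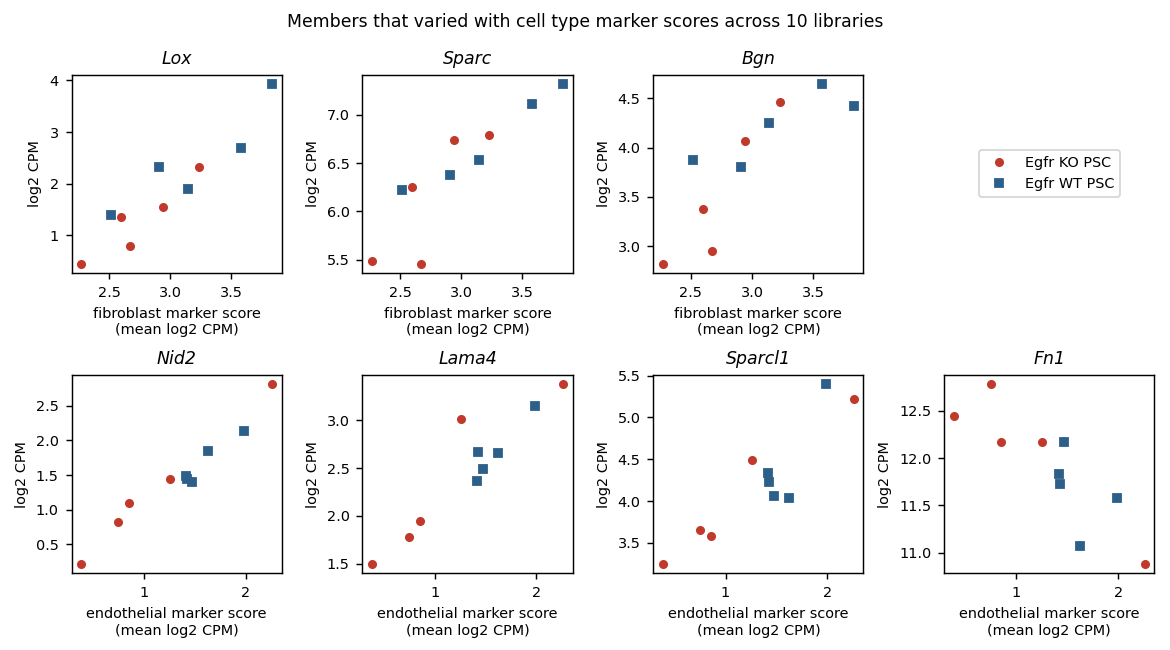
Log2 CPM of 7 members against the mean log2 CPM of fibroblast markers (upper row) or endothelial markers (lower row), 1 point per library, Egfr KO PSC as red circles and Egfr WT PSC as blue squares. Lox, Sparc, Bgn, Nid2, Lama4 and Sparcl1 rise with their score, and Fn1 falls with the endothelial score, which is highest in replicate 3 of Egfr KO PSC and replicate 5 of Egfr WT PSC libraries.

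Without the 2 libraries of highest endothelial score, a setting also added after seeing the data, edgeR again called 0 members after Benjamini-Hochberg adjustment. At an unadjusted p under 0.05 there were 6 members lower in Egfr KO PSC libraries, where 6.47% of all genes were, and 6 higher, where 5.98% were. The 6 higher were Vcan (log2 fold change 0.58), Fbn1 (0.70), Fn1 (0.67), Thbs1 (0.31), Fbln2 (0.45) and Ecm1 (0.67). The 6 lower were Ccdc80 (-1.22), Mfap5 (-1.34), Emilin1 (-0.73), Igfbp5 (-1.29), Dcn (-1.32) and Igfbp6 (-1.28). Lox was not among them. Fbn1 had been at -0.087 with all 10 libraries. The 3 most abundant members, Ecm1, Fn1 and Fbln2, stood among those higher in this setting, with 4 libraries per group. Egfr KO PSC replicate 3, left out here, was the lowest library of its group for all 3 (973, 453 and 287 TPM). Egfr WT PSC replicate 5, also left out, was the highest of its group for Fbln2, Vcan, Fbn1 and Thbs1. Leaving these libraries out thus raises the fold changes of these genes by construction, and the higher counts are no separate evidence. The count of members below 0 was 28, and the median was -0.058 over members and 0.091 over abundant members.

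Fibronectin and versican are made in splice forms, which the transcript estimates allow to be compared. The EDA exon of Fn1, included in the cellular form of fibronectin and skipped in plasma fibronectin, was in 47.7 ± 5.17% of full-length coding Fn1 TPM in Egfr KO PSC libraries and 49.5 ± 8.60% in Egfr WT PSC libraries (SD, n = 5 each; exact permutation p = 0.706). The EDB exon, known from embryonic and tumour matrix, was in 3.55, 1.16, 2.02, 1.53 and 2.45% in Egfr KO PSC libraries and in 4.95, 3.58, 4.01, 2.92 and 2.71% in Egfr WT PSC libraries. Of the 5 Egfr KO PSC libraries 4 lay below every Egfr WT PSC library, but the difference did not pass adjustment over the 8 shares tested (exact permutation p = 0.0317, adjusted p = 0.254). The form without the variable region (V0) made up 3.90 ± 1.08% in Egfr KO PSC libraries and 4.47 ± 0.872% in Egfr WT PSC libraries.

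For versican, the longest form V0 held 42.5 ± 6.38% of full-length coding TPM in Egfr KO PSC libraries and 45.9 ± 3.24% in Egfr WT PSC libraries, and V1 held 28.4 ± 8.48% in Egfr KO PSC libraries and 23.0 ± 3.93% in Egfr WT PSC libraries. V3, which lacks the chondroitin sulfate attachment regions, held 23.1 ± 6.86% in Egfr KO PSC libraries and 22.2 ± 3.91% in Egfr WT PSC libraries. V2 was estimated at 0% in 3 Egfr KO PSC libraries and at up to 18.4% in the others, against 4.87 to 14.9% in Egfr WT PSC libraries. None of the 4 versican shares passed (exact permutation test, adjusted p from 0.624 to 0.825). The long form of Ltbp1 made up 7.08 ± 0.581% in Egfr KO PSC libraries and 6.14 ± 0.933% in Egfr WT PSC libraries (exact permutation p = 0.111, adjusted p = 0.444). Splice forms share most of their sequence, so these shares depend on how the quantification divided reads, and they were tested after seeing the data.

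**Figure D5:**
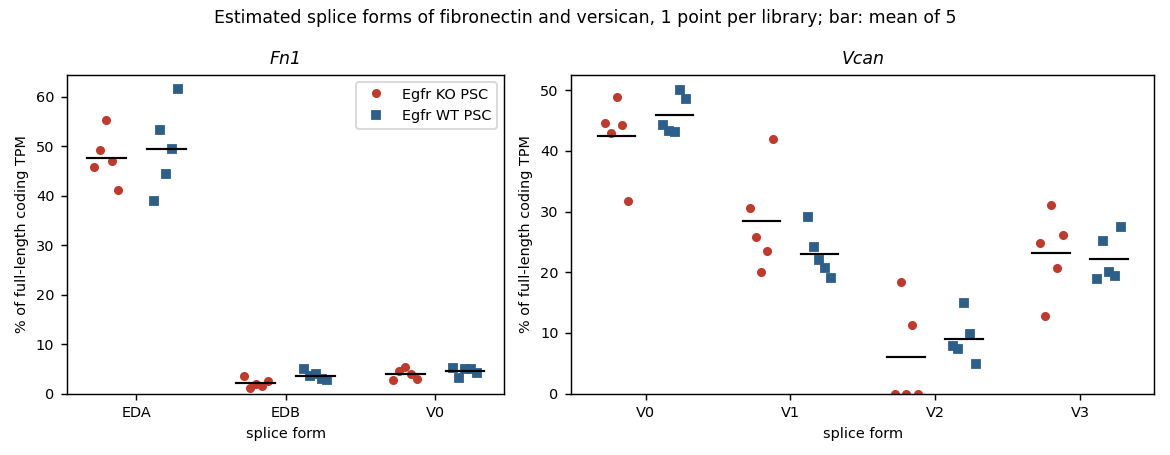
Share of full-length coding TPM, in percent, of fibronectin forms with the EDA or EDB exon or without the variable region (V0) and of the versican forms V0 to V3, 1 point per library with the mean of 5 as a bar, Egfr KO PSC (red circles) beside Egfr WT PSC (blue squares). EDA averages 47.7% in Egfr KO PSC and 49.5% in Egfr WT PSC libraries, and EDB reaches at most 4.95%.

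Other matrix genes gave a frame for these values. Of 28 collagens, other laminin chains and collagen-processing enzymes 17 were lower and 11 higher in Egfr KO PSC libraries (median log2 fold change -0.22), and 4 were lower at an unadjusted p under 0.05, against 4.6% of all genes. The fibrillar collagen gene Col1a1 averaged 26.1 ± 7.93 TPM in Egfr KO PSC libraries and 54.3 ± 15.1 TPM in Egfr WT PSC libraries (SD, n = 5 each), with a log2 fold change of -1.04, an edgeR adjusted p of 0.321 and a DESeq2 adjusted p of 0.00734. Col1a1 and Col1a2 are also among the fibroblast markers. The other 3 were Col1a2 (-0.95), Col5a2 (-0.73) and the crosslinking transglutaminase Tgm2 (-0.65), none called by edgeR or DESeq2. The laminin chains Lama3 and Lamb3, typical of epithelium, had log2 fold changes of 0.55 and 0.58, neither past the edgeR threshold.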

How the data were processed

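The authors deposited 1 transcript quantification per library, with an estimated count, an effective length and a TPM for each of 147828 transcripts. Salmon 1.9.0 and the build GRCm39 (mm39) are named in the submitters' processing notes as the origin of these expected counts. The release of the annotation is not stated there. RNA was extracted from TRIzol and amplified with a low-input kit, with more PCR cycles for smaller inputs, per the labels' protocols. No molecular identifiers are mentioned, so counts are not independent molecules. Transcripts were assigned to genes by identifier with GENCODE M21 of GRCm38 (92.7% of transcripts, 98.07 to 98.687% of counts), which gave names, transcript types and exon structure only. The other 10765 transcripts were left out.

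Estimated counts were summed per gene, rounded to whole numbers and tested by quasi-likelihood in edgeR 4.0.16 (R 4.3.3; TMM, minimum count 10, no covariate), with Benjamini-Hochberg adjustment over 17495 genes at 0.05. The deposited TPM values, summed per gene, gave levels, and normalised CPM gave overlap and scores (prior count 2). Each log2 fold change has Egfr KO PSC on top. Exact tests used all 252 assignments, which cannot give a p below 0.00794, or 126 with 1 library left out. Alternatives were DESeq2 1.42.0, RLE size factors, effective-length offsets, limma 3.58.1 voom with sample weights, no filter and leaving out each library. The edgeR step was also run on simulated counts as a check of the code, and no statement here rests on its outcome.

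The members, roles, marker lists and tests were chosen with earlier results of these data known. Values per library are given for members whose groups do not overlap, members called by a tool, the 12 of lowest p and the 3 of highest level in each role. No pair of libraries agreed within sampling noise (in 45 pairs, a chi-square of at least 34.6 per degree of freedom). Chosen after seeing the data were the endothelial score, the coding-only TPM, the splice shares and the fit without 2 libraries. One gene of the other matrix lists is not reported here.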

Additional observations from a re-analysis of the deposited data

Results flagged for a closer look

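Among 104 groups of 5 libraries, 1 for each of 52 tested members and each PSC genotype, 2 held a library whose gap to the nearest of the other 4 in log2 CPM was over 0.71 of the range of the group. Chance flags about 1 in 20 groups. Matn2, matrilin-2, an adaptor of matrix fibres, was lowest in Egfr KO PSC replicate 3 at 28.8 TPM, with a gap of 0.741 of the range. Sparcl1 was highest in Egfr WT PSC replicate 5 at 22.2 TPM, with a gap of 0.780. That library is 1 of the 2 of highest endothelial score. On the TPM scale, examined after seeing the data, 17 groups held such a library, and 1 of them, Sparcl1, was among the 2 above. In 8 of the 17 it was Egfr WT PSC replicate 5 as the highest library, and the widest gap was 0.951 for Eln in Egfr KO PSC replicate 2. All 17 were flagged at the high end. The rate of 1 in 20 was not checked for TPM values, and the share over all genes was not counted on either scale. These counts are therefore a description only.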

How the results depend on the processing

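No paired analysis was possible because the labels give the groups no shared replicate numbers, and the numbers used here only name libraries. The number of genes called was 0 with edgeR, 132 with DESeq2, 3 with limma voom and 1 without a filter, and 0 to 4 when libraries were left out in turn (4 without Egfr KO PSC replicate 1, 1 without its replicate 3 and 2 without Egfr WT PSC replicate 5). The number of members called was 0 in all of these settings except DESeq2, which called 1 (Ccdc80). Members lower at an unadjusted p under 0.05 numbered 5, where 4.6% of all genes were, against 9 with limma voom, where 7.68% were. They numbered 5 to 8 when libraries were left out (8 without Egfr KO PSC replicate 1 and 8 without its replicate 3). Members higher numbered 1, where 3.55% of all genes were, against 6 without the 2 libraries of highest endothelial score, where 5.98% were. They numbered 0 with DESeq2, 0 with effective-length offsets and 0 to 3 when libraries were left out (3 without Egfr KO PSC replicate 3, and 0 without its replicate 1 or without any of Egfr WT PSC replicates 1 to 4). The share of all genes at this level was not counted with DESeq2, with effective-length offsets or with libraries left out in turn. Member counts in those settings therefore cannot be read against it. The median log2 fold change of abundant members, -0.026, was 0.080 with limma voom and 0.091 without the 2 libraries of highest endothelial score, and -0.097 to 0.059 when libraries were left out. The size of the abundant class was 27 to 29 members when libraries were left out in turn. Over all 12 alternatives examined for that class it was 25 to 37. The log2 fold change turned for several members. With effective-length offsets Lama5 was at -0.040. With limma voom Efemp2 was at 0.0060, Igfbp7 at 0.27 and Loxl1 at 0.0095. Without the 2 libraries of highest endothelial score 7 members turned, which were Fbn1 (0.70), Igfbp7 (0.41), Loxl1 (0.17), Ltbp2 (0.091), Matn2 (0.069), Loxl2 (0.027) and Tgfbi (-0.11). When libraries were left out in turn, the ranges crossed 0 for Lama5 (-0.015 to 0.10), Lamb1 (-0.097 to 0.14), Ltbp1 (-0.19 to 0.19), Igfbp4 (-0.024 to 0.17), Igfbp7 (-0.19 to 0.40), Loxl1 (-0.36 to 0.074) and Loxl2 (-0.51 to 0.016). The difference in summed CPM, Egfr KO PSC minus Egfr WT PSC, ranged from -229 (without Egfr KO PSC replicate 1) to -0.145 (without its replicate 4) for fibroblast and stellate cell markers, from -55.5 to -10.02 (without Egfr WT PSC replicate 5) for pericyte markers, from 97.8 (without Egfr KO PSC replicate 5) to 633 for mesothelial markers, from -2.09 to 12.3 for macrophage markers, from -0.380 to 0.125 for Schwann cell markers and from -16.8 to -3.49 for endothelial markers. The causes were not tested. Every comparison is limited by 5 libraries per group, 1 knockout clone and labels that do not tie libraries to mice, and members under 1 TPM also carry counting error.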
